A study of Mus musculus with 6 samples.

Results

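The nuclear-encoded subunits of the respiratory chain and ATP synthase were followed in tumours grown in mice whose myeloid cells lacked annexin A1. Members were the genes whose symbols start with the names of the subunits of complexes I to V (Nduf, Sdh, Uqcr, Cox4 to Cox8 and Atp5), with pseudogenes left out. They came to 87 of the 17352 genes in the deposited table, of which 42 belonged to complex I, 4 to complex II, 8 to complex III, 16 to complex IV and 17 to complex V. A filter on low values (mean FPKM of at least 0.5, where FPKM is fragments scaled by gene length and library total) kept 85 of the 87 among 12257 genes tested. Ndufb4c and Cox8b were below it. Ndufa4 and Ndufa4l2 were counted with complex I by their symbols, although the Gene Ontology terms in the table place Ndufa4 with complex IV as well as complex I.

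RNA was sequenced from 6 whole tumours of Panc02, a mouse pancreatic cancer cell line, taken 4 weeks after implantation under the skin. In 3 of them (deficient 3, 4 and 5, by the numbers in their labels) the hosts were Anxa1ΔMφ mice, with annexin A1 deficiency in myeloid cells. The other 3 (wild type 2, 3 and 5) grew in Anxa1 flox/flox mice, which carry the floxed alleles and stand for wild type. The Cre driver, strain, sex and age of the hosts are not given in the labels used here. All 6 labels carry the letters HFD, which they do not define. The implanted tumour cells are not described as lacking Anxa1, and a whole tumour holds both tumour cells and host cells. In such bulk RNA, fewer cells of a type and less RNA per cell cannot be told apart.

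The respiratory chain passes electrons from NADH (complex I) and succinate (complex II) through ubiquinone, complex III and cytochrome c to oxygen (complex IV), pumping protons that ATP synthase (complex V) uses to make ATP. Most subunits are encoded in the nucleus, while some subunits of complexes I, III, IV and V are encoded in mitochondrial DNA. Nuclear respiratory factor 1 (NRF1), ETS family factors such as GABP, and the PGC-1 and ERR proteins are known activators of these genes, and several subunits have isoforms restricted to muscle, lung, testis or hypoxic cells. No gene encoded in mitochondrial DNA was analysed here.

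Promoter sequence was read from RefSeq (GRCm38.p6), which had windows for 70 of the 87 members, each covering the 250 bases before a transcription start. A gene with several windows was counted once, as matched if any of them held the letters. The core of the NRF1 binding motif reads the same on both strands, as GCGCA followed directly by its reverse complement TGCGC. The joined letters occurred in 4 of the 70 members (5.71%) and in 237 of all 27025 genes with windows (0.877%). The 4 promoters are shown because these letters are the best known mark of a respiratory gene promoter. Each line gives 120 bases, 5′ to 3′ on the gene's strand, with the NRF1 letters in capitals.
Atp5g2: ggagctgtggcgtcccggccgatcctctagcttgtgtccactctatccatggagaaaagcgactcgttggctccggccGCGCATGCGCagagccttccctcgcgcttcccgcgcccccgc
Atp5k: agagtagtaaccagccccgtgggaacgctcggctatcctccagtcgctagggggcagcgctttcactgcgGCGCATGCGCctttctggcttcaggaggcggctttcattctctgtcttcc
Cox6a1: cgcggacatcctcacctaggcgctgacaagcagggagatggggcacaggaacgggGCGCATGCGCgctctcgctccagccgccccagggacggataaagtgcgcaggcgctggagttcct
Ndufa11: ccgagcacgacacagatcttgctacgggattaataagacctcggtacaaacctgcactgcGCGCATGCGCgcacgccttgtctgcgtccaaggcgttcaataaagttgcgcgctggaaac
The Atp5g2 stretch lies at chr15:102671048-102671167 on the minus strand, with the letters ending 32 bases before the start site. The Atp5k stretch lies at chr5:108434400-108434519 on the minus strand, with the letters ending 40 bases before the start. The Cox6a1 stretch lies at chr5:115349056-115349175 on the minus strand, and its letters end 152 bases before the start. The Ndufa11 stretch lies at chr17:56717642-56717761 on the plus strand, and its letters end 50 bases before the start. The 4 genes encode a proton-ring subunit and a small membrane subunit of ATP synthase, a cytochrome c oxidase subunit and a membrane subunit of complex I. The ETS letters CCGGAAG, on either strand, were present in 12 of the 70 members (17.1%) and in 7.83% of all genes with windows. The short hypoxia-response letters ACGTG or GCGTG, on either strand, were in 37 of the 70 (52.9%) and in 41.5% of all genes with windows. A match describes the letters in the window and says nothing of whether a factor is bound there.

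Libraries had an implied depth of 37465504 to 41071630 fragments in deficient tumours and of 38913505 to 39492857 fragments in wild-type tumours. Whole fragments could be recovered for all 87 members, up to 42430 in a library, so counting error was small for the abundant ones. Anxa1 itself had 249.9, 330.2 and 290.5 FPKM in deficient 3, 4 and 5, against 341.8, 354.4 and 394.2 FPKM in wild type 2, 3 and 5 (log2 fold change -0.33, SE 0.12, limma adjusted p = 0.268). Ddx3y, a Y-linked gene, had 0 to 0.126 FPKM in deficient tumours and 3.13 to 6.79 FPKM in wild-type tumours (adjusted p = 0.00903), so genotype and the source of Y-linked RNA cannot be told apart. No member lies on chromosome Y, and 3 (Ndufa1, Ndufb11 and Cox7b) lie on X. Krt8, Krt18, Krt19, Epcam, Cdh1 and Krt7, the markers of tumour epithelium, summed to 460 to 610 FPKM in deficient tumours and to 453 to 552 FPKM in wild-type tumours, nearly all of it Krt8 and Krt18. Of these 6 markers 2 had separated groups, Epcam (3.29 ± 2.14 FPKM in deficient and 0.245 ± 0.127 FPKM in wild-type tumours, SD, n = 3 each; log2 fold change 1.66, limma adjusted p = 0.0808) and Cdh1 (0.61, adjusted p = 0.288). Among all genes tested, 11.8% had every deficient tumour above every wild-type tumour, and 8.31% had every one below. The median of the 6 markers was 0.34, and their part in the members' values was not tested.

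Respiratory chain genes were abundant in all 6 tumours, and a few isoforms stood far below the rest. Mean FPKM over the tested members had a median of 96.9 and ran between 0.624 (Cox6b2) and 575 (Cox6c). By complex, the median level was 66.8 FPKM for complex I, 100.2 for complex II, 115 for complex III, 200.02 for complex IV and 192 for complex V. The subunits of complex II, which are needed in equal numbers, lay between 82.8 and 108 FPKM. Cox6c and Cox4i1 of complex IV, Atp5b of ATP synthase and Uqcrh, the hinge protein of complex III, were among the highest. Ndufb4b, Ndufb4c and Ndufs6b are near-copies of Ndufb4 and Ndufs6, so reads may be shared between them and their low values are uncertain.

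**Figure D1:**
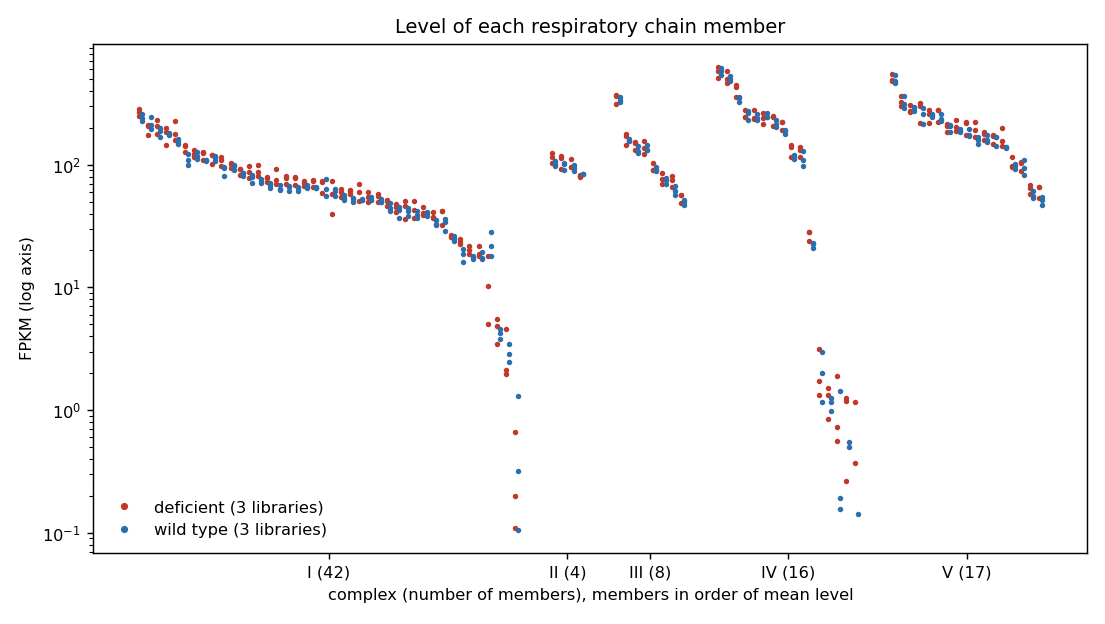
FPKM of members in each tumour (points; deficient left of wild type) on a log axis, by complex; libraries at 0 are not drawn. 79 of the 87 members average above 10 FPKM over the 6 tumours, with 575 for Cox6c at the top and 0.280 for Cox8b, which was not tested, at the bottom.

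Most members were slightly higher in the deficient tumours, and none passed the test. Of the 85 tested, 75 had a log2 fold change above 0 and 10 below, where 54.7% of all genes tested were above 0. The median log2 fold change was 0.12 for the members and 0.019 for all genes tested. Adjusted over all genes, 0 members were called at an adjusted p under 0.05 (limma), against 0.979% of all genes called higher, 0.228% called lower and 1.21% in either direction. At an unadjusted p under 0.05 there were 11 higher members and 1 lower, 12 of 85, where 9.86% of all genes were higher and 5.25% lower (15.1% in both). limma-voom on the recovered fragments also called 0 members. The 3 deficient libraries lay above all 3 wild-type libraries for 14 members and below them for 2, while 11.8% of all genes lay above and 8.31% below. Single differences were small in size, with a median SE of 0.101. For 78 of 85 members the 95% interval of the difference lay within 1.5-fold in either direction. Leaving out 1 library moved the median of 0.12 to 0.19 without deficient 3, 0.063 without deficient 4 and 0.075 without wild type 5.

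The members also differed between libraries of one group. Relative to each gene's mean over the 6 libraries, the median member stood at -0.068, 0.15 and 0.10 (log2) in deficient 3, 4 and 5, against 0.013, -0.058 and -0.11 in wild type 2, 3 and 5. Deficient 3 was lower than wild type 2 and wild type 3, so the groups overlapped. In complex III the median member stood at -0.096, 0.15 and 0.10 in deficient 3, 4 and 5, against 0.012, -0.044 and -0.066 in wild type 2, 3 and 5. There deficient 3 was the lowest library. Deficient 4 and 5 were the highest pair in each of the 5 complexes, and wild type 5 was the lowest in complexes I, II, IV and V.

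**Figure D2:**
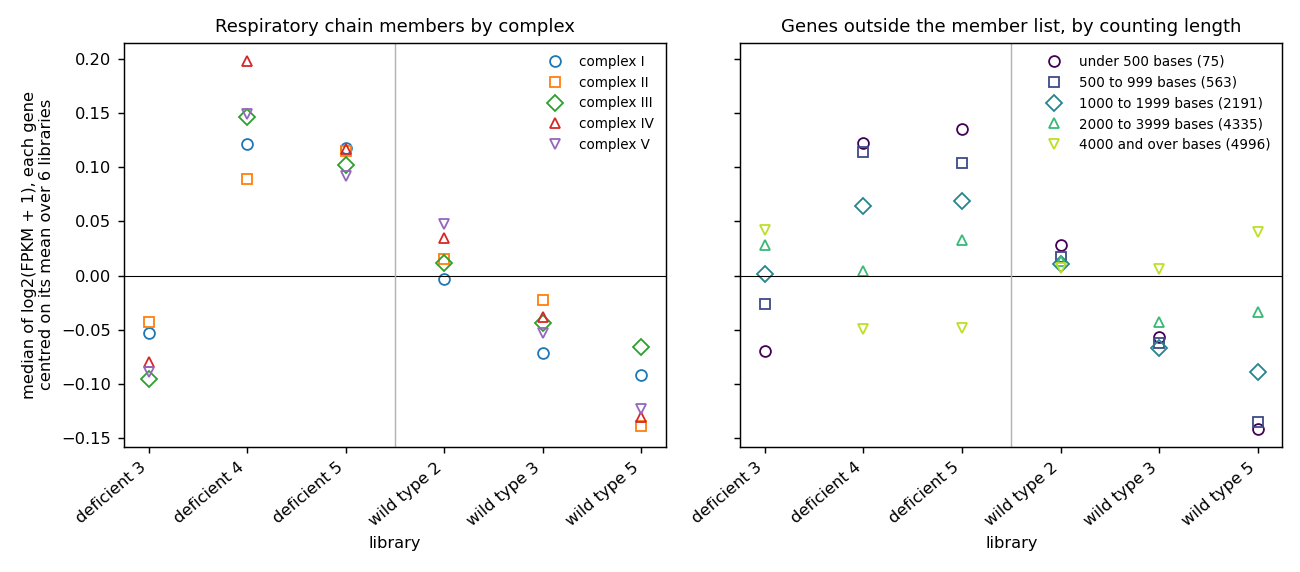
Median log2(FPKM + 1), each gene centred on its mean over the 6 libraries, per tumour (deficient left of wild type), for members by complex (left panel) and for other tested genes by counting length (right panel, number of genes in brackets). Deficient 4 and 5 stand above 0 in each complex and deficient 3 below 0, and other genes under 1000 bases show the same signs in these libraries.

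Short genes that are no members had a like order of libraries. Members have a median counting length (the transcript length that the deposited FPKM implies) of 761 bases, against 3399 bases for all genes tested. The 563 other genes of 500 to under 1000 bases had medians of -0.026, 0.11 and 0.10 in deficient 3, 4 and 5, against 0.017, -0.062 and -0.14 in wild type 2, 3 and 5. Their median log2 fold change was 0.12, and 422 of the 563 were higher in deficient tumours. The 35 members of this length had a median of 0.13, and 33 were higher. Under 500 bases, the median was 0.068 in 16 members (13 higher) and 0.13 in 75 other genes (56 higher). From 1000 to under 4000 bases, members fell in a shorter class (0.11, 23 of 26 higher) and a longer class (0.091, 6 of 8 higher). Other genes of these classes had 0.087 (1502 of 2191 higher) and 0.037 (2590 of 4335 higher). In the 4996 other genes of 4000 bases and over, the median was -0.034 and 41.2% were higher. When each library's trend with counting length was removed, an alternative chosen after the data were seen, the median of the members was -0.051 and 27 of 85 were higher. The median of all genes tested was then -0.015, and 5637 of 12257 were higher. By complex the medians were then -0.017 for I, -0.031 for II, -0.079 for III, -0.099 for IV and -0.055 for V.

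**Figure D3:**
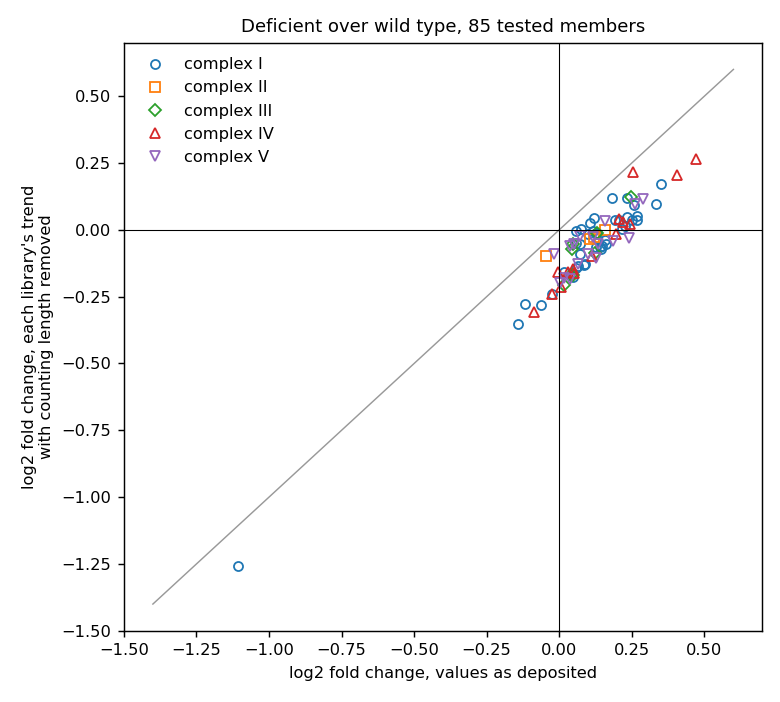
Log2 fold change (deficient over wild type) of each of the 85 tested members, by complex, with each library's length trend removed (vertical axis) against the values as deposited (horizontal axis); the diagonal marks equal values. On the vertical axis 27 members lie above 0, against 75 on the horizontal axis, and Ndufa4l2 lies at -1.26 on the vertical and -1.11 on the horizontal axis.

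Complex I, the entry point for electrons from NADH, had the most members tested and the most with separated groups. Of 41 tested, 36 were higher and 5 lower, with a median log2 fold change of 0.12. In 11 the deficient tumours lay above all wild-type tumours, and in 1 below, where 11.8% and 8.31% of all genes did so. All 7 core subunits of its hydrophilic arm were higher (median 0.19), and 0 of the 7 were called. Ndufs8, which carries iron-sulphur clusters, had 80.8, 99.1 and 87.0 FPKM in deficient 3, 4 and 5, against 76.4, 74.3 and 71.5 FPKM in wild type 2, 3 and 5 (0.26, SE 0.094, adjusted p = 0.265). Ndufv2, part of the NADH-oxidising tip, had 68.6, 79.0 and 78.3 FPKM in deficient tumours and 65.6, 64.2 and 61.4 FPKM in wild-type tumours (0.23, SE 0.086, adjusted p = 0.261). Ndufs7, which lies at the ubiquinone site, averaged 38.5 ± 2.44 FPKM in deficient and 33.5 ± 1.66 FPKM in wild-type tumours (SD, n = 3 each). The groups of these 3 subunits did not overlap. The groups overlapped for Ndufs3 (0.21), Ndufv1, which binds NADH (0.10), and Ndufs1 (0.058).

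The accessory subunits of complex I gave the smallest p-values among the members. Ndufb2, in the membrane arm, had 23.6, 24.9 and 22.8 FPKM in deficient 3, 4 and 5, against 20.5, 18.7 and 16.3 FPKM in wild type 2, 3 and 5 (0.35, SE 0.10, adjusted p = 0.168, the lowest of the 85 tested). Ndufb1, another membrane arm subunit, had 127, 142 and 146 FPKM in deficient tumours and 122, 110 and 98.8 FPKM in wild-type tumours (0.33, SE 0.10, adjusted p = 0.197). Both genes had every deficient tumour above every wild-type tumour, and neither was called. Ndufa5, Ndufa8, Ndufb7, Ndufa1, Ndufa11 and Ndufs5 also had separated groups, with log2 fold changes of 0.16 to 0.27. Ndufa12, an accessory subunit of the hydrophilic arm, had 39.3 FPKM in deficient 4, against 55.8 to 73.5 FPKM in the other 5 libraries. That library stood 0.65 (log2) below what the median of complex I would give, a departure exceeded among members above 10 FPKM only by Ndufa4l2. Ndufb9, at 268 ± 15.2 FPKM in deficient and 242 ± 17.9 FPKM in wild-type tumours, was the most abundant complex I gene.

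Ndufa4l2 stood apart from the other members. It encodes a relative of Ndufa4 that is known as a hypoxia-induced gene and as a marker of pericytes. Ndufa4l2 had 10.3, 17.9 and 5.05 FPKM in deficient 3, 4 and 5 (443, 845 and 219 fragments), against 18.1, 21.9 and 28.3 FPKM in wild type 2, 3 and 5 (822, 982 and 1268 fragments). Every deficient tumour was below every wild-type tumour, with deficient 4 and wild type 2 the closest pair. The log2 fold change was -1.11 (SE 0.37, 95% interval -1.97 to -0.24, unadjusted p = 0.019), and the gene was not called (adjusted p = 0.229). Without deficient 4 it was called, at -1.50 with an adjusted p of 0.0466, and without each of the other libraries in turn the adjusted p was 0.198 to 0.535. Ndufa4, its widespread partner, had 144, 185 and 200 FPKM in deficient tumours and 176, 180 and 177 FPKM in wild-type tumours, which overlap. The pericyte markers Rgs5, Cspg4, Pdgfrb, Kcnj8 and Abcc9 summed to 50.4 to 69.2 FPKM in deficient tumours and 54.8 to 64.9 FPKM in wild-type tumours, most of it Pdgfrb, and 0 of the 5 had separated groups. Their median log2 fold change was -0.30: Cspg4 was at -0.35 (unadjusted p = 0.043, adjusted p = 0.313), Kcnj8 at -0.45, Abcc9 at -0.30, Pdgfrb at 0.0041 and Rgs5 at 0.23, and their part in the Ndufa4l2 difference was not tested.

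Complex II, which takes electrons from succinate in the citric acid cycle, had 3 members higher and 1 lower, 0 of them called. Sdha, the flavoprotein, had 83.2, 81.3 and 79.8 FPKM in deficient 3, 4 and 5, against 84.6, 83.2 and 84.5 FPKM in wild type 2, 3 and 5 (-0.046, SE 0.070, adjusted p = 0.806). Its deficient values lay below its wild-type values by small margins. Sdhb, the iron-sulphur subunit, averaged 114 ± 11.2 FPKM in deficient and 102 ± 5.36 FPKM in wild-type tumours, and Sdhc and Sdhd, the membrane anchors, were 0.11 and 0.12 (log2) higher, with overlapping groups.

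Complex III had 8 of 8 members above 0, each with overlapping groups, and the lowest median of the 5 complexes (0.047). Cyc1, the cytochrome c1 of this complex, does not match the symbols and was counted with the electron carriers (0.069, overlapping groups). Without deficient 4 the median of the 8 members was 0.00060, and with quantile normalization it was -0.00094, where the median of all genes tested was -0.019. Uqcrq, a small ubiquinone-binding subunit, had 65.2, 80.6 and 74.9 FPKM in deficient tumours and 67.6, 61.1 and 56.4 FPKM in wild-type tumours (0.25, SE 0.11, adjusted p = 0.334). Uqcrfs1, the Rieske iron-sulphur protein, was at 0.13, while the core proteins Uqcrc1 and Uqcrc2 were at 0.043 and 0.047. Uqcrh averaged 349 ± 31.0 FPKM in deficient and 339 ± 14.8 FPKM in wild-type tumours.

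In complex IV, which reduces oxygen, 12 of 15 tested members were higher and 3 lower (Cox7a2l, Cox6c and Cox7c), with a median of 0.11. Cox5a and Cox5b, both nuclear-encoded structural subunits, were the only ones with separated groups. Cox5a had 23.7, 28.4 and 28.1 FPKM in deficient 3, 4 and 5, against 23.06, 22.49 and 20.97 FPKM in wild type 2, 3 and 5 (0.26, SE 0.096, adjusted p = 0.275). Cox5b averaged 214 ± 17.7 FPKM in deficient and 186 ± 6.72 FPKM in wild-type tumours (0.19). Cox6c and Cox4i1, the most abundant, were at -0.026 and 0.030. Cox7a2l, which joins complexes III and IV into supercomplexes, was at -0.0047.

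ATP synthase, complex V, had 16 of 17 members above 0 with a median of 0.099. Of the F1 head subunits, Atp5e was highest (0.18), Atp5d, Atp5c1 and Atp5b were at 0.073, 0.050 and 0.038, and Atp5a1 was at -0.018, each with overlapping groups. Atp5k was the one member with separated groups, at 142, 157 and 199 FPKM in deficient tumours and 139, 141 and 138 FPKM in wild-type tumours. Atp5g1, Atp5g2 and Atp5g3 encode the same mature ring protein with different import signals. Atp5g3 averaged 194 ± 28.5 FPKM in deficient and 158 ± 10.7 FPKM in wild-type tumours (0.29, SE 0.12, adjusted p = 0.318), and Atp5g1 averaged 61.6 ± 6.92 FPKM in deficient and 51.1 ± 3.57 FPKM in wild-type tumours (0.26, SE 0.11, adjusted p = 0.308). Atp5g2, the most abundant of the 3, was at 0.0018. Its share of their summed FPKM was 49.9%, 52.1% and 47.3% in deficient tumours and 53.7%, 56.7% and 53.5% in wild-type tumours, a comparison chosen after its values were seen and given without a test.

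**Figure D4:**
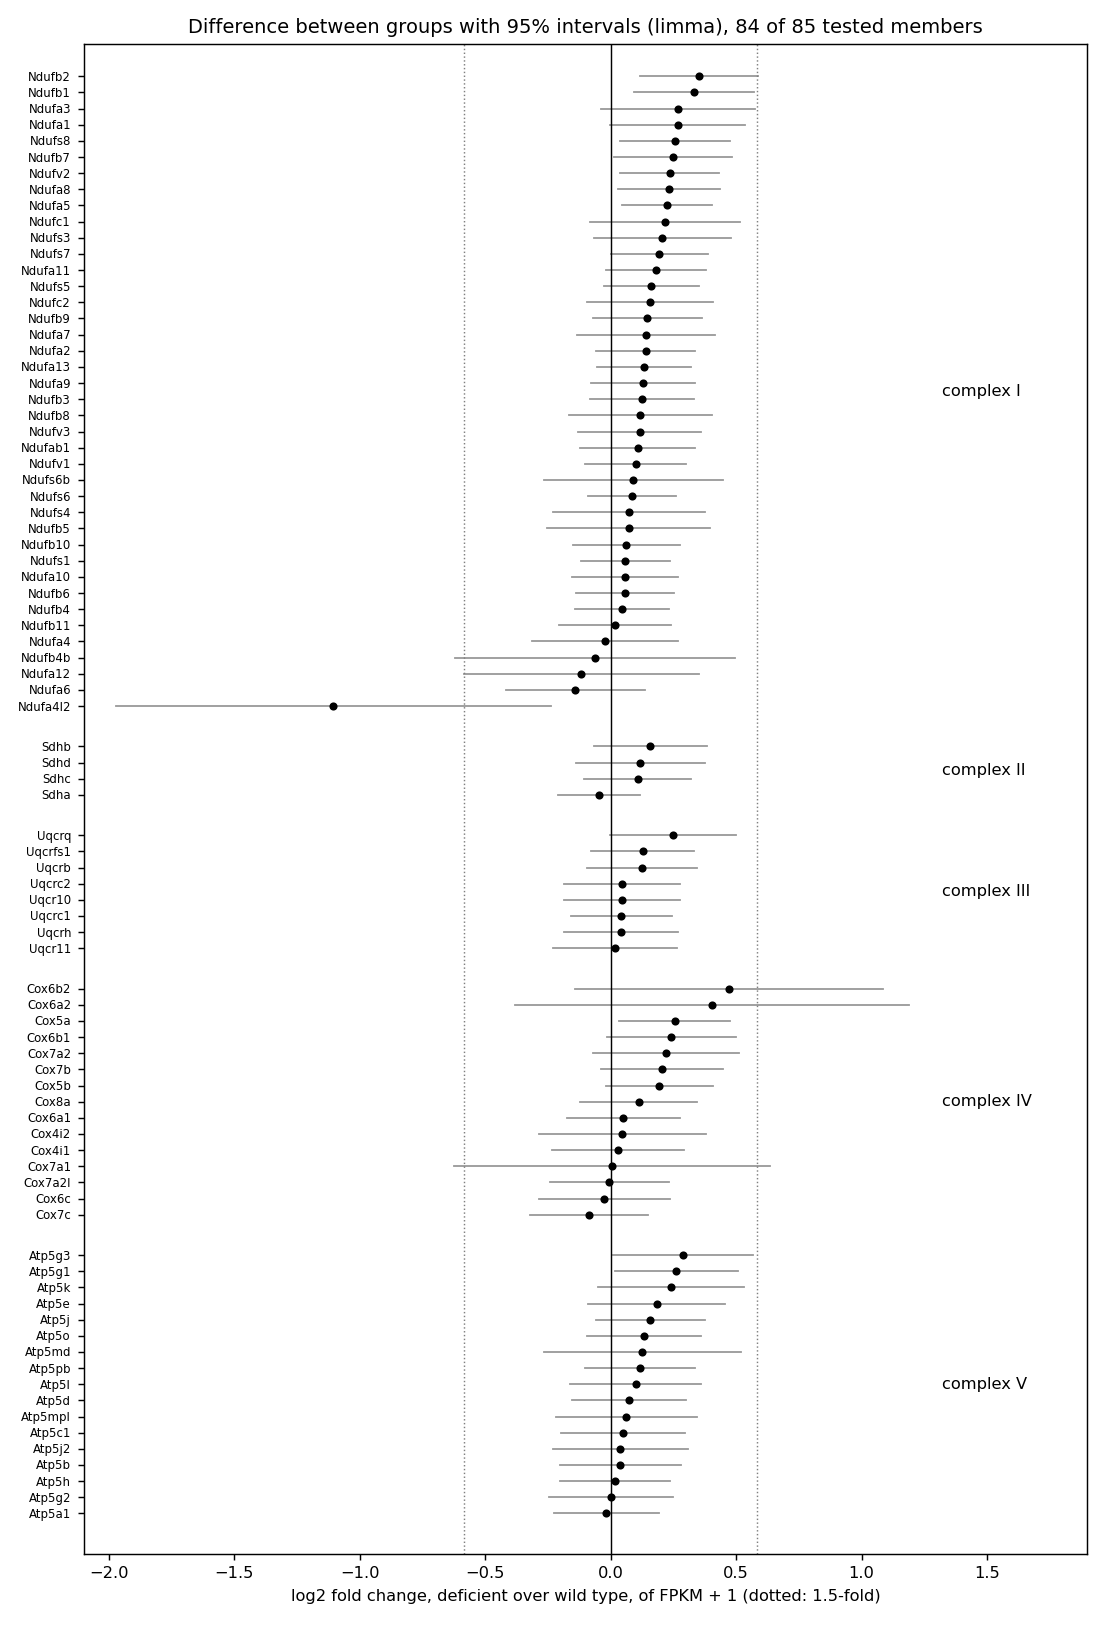
Log2 fold change (deficient over wild type, points) of 84 of the 85 tested members with its 95% interval (lines), ordered within each complex; dotted lines mark 1.5-fold, and the intervals are not adjusted for the number of genes. Ndufa4l2 lies at -1.11 with an interval from -1.97 to -0.24, and Ndufb2, with the smallest p, at 0.35.

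The tissue-restricted isoforms were low beside their widespread partners. The share of Ndufa4l2 in its summed FPKM with Ndufa4 was 6.64%, 8.82% and 2.46% in deficient 3, 4 and 5, against 9.32%, 10.8% and 13.8% in wild type 2, 3 and 5 (exact two-sided permutation test, p = 0.1, the smallest that 3 against 3 can give; adjusted p = 0.4 over 4 pairs). The share of Cox4i2, the lung and hypoxia isoform of Cox4, was 0.286%, 0.258% and 0.167% in deficient tumours and 0.236%, 0.233% and 0.206% in wild-type tumours (exact p = 0.8). Cox7a1, a muscle isoform, had a share of 0.937% to 2.30% in deficient and 1.19% to 2.26% in wild-type tumours (exact p = 0.8). Cox6a2, another muscle isoform, had 18, 51 and 14 fragments in deficient tumours and 5, 37 and 4 in wild-type tumours (exact p of the share = 0.5). Its highest libraries, deficient 4 and wild type 3, were also the highest for the 14 skeletal muscle markers (9.80, 38.3 and 5.31 summed FPKM in deficient tumours, 14.4, 65.0 and 8.81 in wild-type tumours), whose part was not tested. The Cox7a1 share was also highest in deficient 4, but was higher in wild type 2 (2.26%) than in wild type 3 (1.81%). Cox6b2, a testis isoform, had 6, 31 and 27 fragments in deficient and 12, 0 and 13 in wild-type tumours. Cox8b, a muscle and heart isoform, had 5, 0 and 16 fragments in deficient and 0, 2 and 0 in wild-type tumours. Its highest library, deficient 5, was the lowest for the skeletal muscle markers. Its counts of 0 allow up to 0.201 FPKM in deficient 4, 0.209 in wild type 2 and 0.212 in wild type 5 (at 3 fragments, for counting error only).

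**Figure D5:**
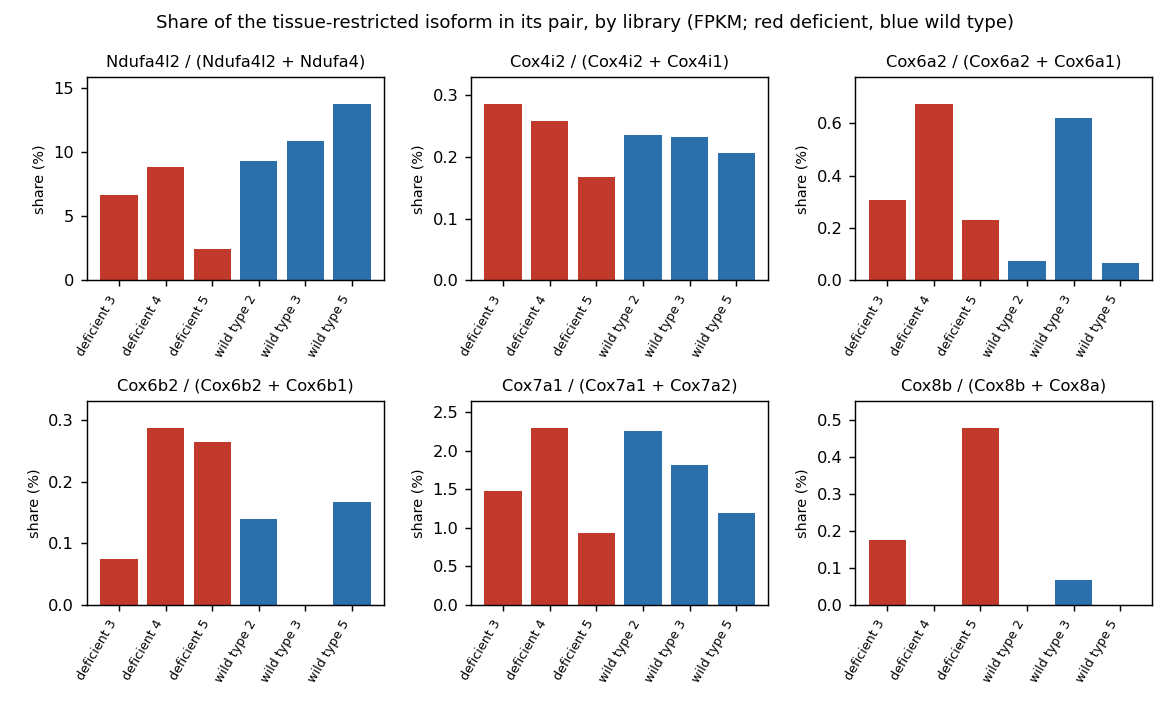
Share (%) of the restricted isoform in the summed FPKM of each of 6 isoform pairs, 1 bar per tumour (deficient in red, left of wild type in blue); the vertical scales differ between pairs. Ndufa4l2 is at 2.46% to 8.82% in deficient and 9.32% to 13.8% in wild-type tumours, and the groups of the other pairs overlap.

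Genes that assemble the complexes, and those of the mitochondrial ribosome, had median log2 fold changes like that of the subunits. Their libraries were not all in the same order. The median assembly factor stood at 0.055, 0.047 and 0.045 in deficient 3, 4 and 5, against 0.031, -0.041 and -0.082 in wild type 2, 3 and 5. The median ribosomal protein stood at -0.020, 0.12 and 0.065, against 0.052, -0.11 and -0.13. Deficient 3 was thus low for the subunits and not for the assembly factors. Of 44 assembly factors tested, 35 were higher (median 0.12), 0 were called, and 14 of 14 for complex I were above 0. Among all genes tested, 54.7% were higher. Of the 44, 3 had an unadjusted p under 0.05 (limma), where 15.1% of all genes tested did. For complexes II, III, IV and V, 3 of 4, 3 of 6, 12 of 17 and 3 of 3 were above 0. Cox17, a copper chaperone for complex IV, was at 0.31 (adjusted p = 0.269), Coa7 at 0.32 (adjusted p = 0.307), and Atpaf1, which assembles the F1 head, at 0.28 (adjusted p = 0.272). Of 78 mitochondrial ribosomal proteins, 69 were higher (median 0.12) and 0 were called, with Mrpl57 at 0.42 (adjusted p = 0.134) and Mrps12 at 0.39 (adjusted p = 0.172). At an unadjusted p under 0.05 (limma), 13 of these 78 were higher and 0 lower, where 9.86% of all genes tested were higher and 5.25% lower. The median counting length was 1785 bases for the assembly factors and 1412.5 bases for the ribosomal proteins. Both lengths lie in the shorter of the classes from 1000 to under 4000 bases. Other genes of that class, outside the members, had a median of 0.087, and 68.6% were higher. The electron carriers and their synthesis enzymes had 9 of 14 above 0 (median 0.069), among them Coq7 of ubiquinone synthesis at 0.30 (adjusted p = 0.304). The citric acid cycle had 8 of 13 above 0 (median 0.039), and regulators of mitochondrial genes 7 of 11 (median 0.0089). Neither list had a called gene or one with an unadjusted p under 0.05.

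Host-cell markers differed between the same tumours. The 8 macrophage markers summed to 6018, 4039 and 6935 FPKM in deficient 3, 4 and 5, against 4409, 3893 and 4066 FPKM in wild type 2, 3 and 5, and 4 of 8 had separated groups. Lyz2, the largest part of these sums, had overlapping groups (3600, 1918 and 4205 FPKM against 2411, 2019 and 2209 FPKM). The 10 adipocyte markers summed to 150 to 549 FPKM in deficient and 60.2 to 168 FPKM in wild-type tumours, with 3 of 10 separated. Plin4 was the 1 adipocyte marker with a negative log2 fold change (-0.58, overlapping groups). The 6 T cell markers summed to 36.3 to 57.9 FPKM in deficient and 19.7 to 29.2 FPKM in wild-type tumours, with 4 of 6 separated. Cd8a and Cd8b1 were called higher (limma adjusted p = 0.0244 and 0.0256), and Cd4 was at -0.072. The separated markers of these 3 lists were all higher in deficient tumours. Of all genes tested, 11.8% lay above without overlap and 8.31% below. The 4 brown adipocyte markers in the table summed to 1.09 to 4.58 FPKM in deficient and 2.02 to 2.32 FPKM in wild-type tumours, nearly all of it Dio2. No marker of these lists was at 0 in all 6 libraries, but the brown adipocyte markers Ucp1 and Cidea each had 1 fragment in 1 library only. Deficient 3 and 5 had the highest macrophage and adipocyte sums, and of these libraries deficient 3 was low and deficient 5 high for the respiratory chain. The part of host cells in the members' values was not tested.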

How the data were processed

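Libraries were prepared from total tumour RNA and read at both ends, per the labels' protocols. HISAT2, HTSeq and R 3.2.0 appear, with no role given, in the submitters' processing notes, and the genome build is not given in the sources used here. The authors deposited 1 table with no named unit, read here as FPKM because of how its values are spaced. The implied depth came from low values that, at annotated gene lengths, piled up at 1 fragment. Counting lengths of 20 to 40000 bases were then tried for each gene. In 17313 of 17352 genes a length made every value above 0 a whole number of fragments (tolerance 0.0001). This gave fragments and counting lengths, and it is a weak check for genes with few values above 0.

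limma 3.58.1 in R 4.3.3 was fitted to log2(FPKM + 1) of the 12257 genes with a mean FPKM of at least 0.5, with a variance trend, a group term and Benjamini-Hochberg adjustment over all of them, and fold changes of low genes are understated on this scale. The fit was tested on simulated data. P-values reflect only the spread among these 6 tumours, and no pairing of animals is stated in the labels.

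Members and lists were chosen with earlier results of these data known. Genes named are Anxa1 and, per complex, core subunits, the 2 smallest p-values, the highest and lowest levels and the isoforms, and up to 2 genes per related list; 1 gene of the rule is not reported here. Ndufa12, Sdhd, Cox5b, Atp5k, Atp5g2 and other members outside this rule were named after their values were seen. Alternatives covered the pseudocount, the filter, the scaling, the threshold, the variance trend, the replicate number as a block and each library left out in turn. voom on recovered fragments and removal of each library's length trend (loess, span 0.5) were added after seeing the data.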

Additional observations from a re-analysis of the deposited data

How the results depend on the processing

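Under limma-voom, the other pseudocount, filters, scalings and threshold, 0 members were called, and between 59 (quantile normalization) and 76 (no filter) were higher. With quantile normalization 5590 of the 12257 genes tested were higher, with a median of -0.019. Genes called over the whole table numbered 120 higher and 28 lower. They were 10 and 8 with no filter, 245 and 63 at an adjusted p under 0.1, 74 higher with quantile normalization, 67 higher with voom and 54 higher with the length trend removed. The replicate block gave 633 and 354 called genes and 1 called member, Ndufa4l2 (-1.65, limma adjusted p = 0.00676). Deficient 4 and wild type 2 have no partner of the same number. The group difference under the block therefore rests on the tumours numbered 3 and 5 only, and leaves out the closest pair for Ndufa4l2. Deviations of same-numbered tumours had correlations of -0.090 for number 3 and -0.0085 for number 5. Tumours of different numbers had -0.039 (deficient 3 with wild type 5) and -0.16 (deficient 5 with wild type 3). So few values cannot show whether the numbers are pairs. The labels state no pairing, and the main fit used none.

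Leaving out 1 library gave 7 to 270 genes called higher and 3 to 66 lower (lowest without wild type 3, highest without deficient 4), 0 to 1 members called and 60 to 80 members higher. The median log2 fold change was then 0.063 to 0.19 over all members, 0.10 to 0.19 in complex I, 0.061 to 0.18 in II, 0.00060 to 0.13 in III, 0.063 to 0.20 in IV and 0.036 to 0.18 in V. Share differences (percentage points) were -6.76 to -3.59 for Ndufa4l2, -0.013 to 0.047 for Cox4i2, 0.017 to 0.34 for Cox6a2 and -0.55 to 0.13 for Cox7a1. The sign of 28 of the 85 tested members turned without at least 1 library. Among the 38 tested members named by the rule these were Atp5a1 (-0.078 to 0.021), Atp5b (-0.021 to 0.10), Atp5c1 (-0.027 to 0.13), Atp5d (-0.014 to 0.12), Cox4i1 (-0.061 to 0.11), Cox4i2 (-0.046 to 0.18), Cox6a1 (-0.021 to 0.10), Cox6c (-0.094 to 0.055), Cox7a1 (-0.23 to 0.22), Ndufa4 (-0.12 to 0.11), Uqcrc1 (-0.019 to 0.076), Uqcrc2 (-0.032 to 0.12) and Uqcrh (-0.0092 to 0.11).

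With the length trend removed, 27 members were higher and the medians were -0.051 in all, -0.017, -0.031, -0.079, -0.099 and -0.055 in complexes I to V. Of the 12257 genes tested, 5637 were then higher, with a median of -0.015. Signs turned for 48 of 85 members, among the 38 named by the rule for Ndufb9 (-0.062), Sdhc (-0.036), Uqcrfs1 (-0.013), Uqcrh (-0.17), Atp5b (-0.061), Ndufs1 (-0.0040), Ndufv1 (-0.017), Uqcrc1 (-0.072), Uqcrc2 (-0.052), Atp5c1 (-0.055), Atp5d (-0.022), Atp5e (-0.042), Cox4i2 (-0.15), Cox7a1 (-0.21), Cox4i1 (-0.16), Cox6a1 (-0.16) and Cox8a (-0.10). Under quantile normalization they turned for 16 members, of the 38 for Atp5b (-0.0020), Uqcrc1 (-0.025), Uqcrc2 (-0.0084), Atp5c1 (-0.036), Cox7a1 (-0.014) and Cox6a1 (-0.012), and the median of complex III was -0.00094. Under median-ratio scaling they turned for 5 members, of the 38 for Cox7a1 (-0.0091), and under the block for 13 members, of the 38 for Uqcrh (-0.0097), Cox6c (0.0090), Uqcrc2 (-0.025), Cox4i2 (-0.0065), Cox6a2 (-0.031), Cox7a1 (-0.018) and Cox4i1 (-0.023). The cause was not tested. Depth limits the rare isoforms Cox6a2, Cox6b2 and Cox8b, whose counts of a few fragments carry counting error.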
